A study of Glycine max with 18 samples.

Results

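The WRKY genes are a family of plant transcription factors, and their activity was followed here through the compartments of the developing soybean seed. A gene was taken as a member when its symbol or a synonym in the probe annotation was WRKY or GmWRKY followed by a number and its probe set was assigned to that gene alone. This gave 53 genes with 104 probe sets among the 37593 soybean probe sets of the array. Of the 53 genes, 45 reached a signal of 100 on 2 or more arrays with some probe set and were tested, and 8 did not. Where a gene had several probe sets, the brightest on average was used.

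The samples came from seeds of soybean (Glycine max), cultivar Asgrow A3237, 2.5 to 3 mm long with cotyledon-stage embryos, from plants kept at 22 °C. Laser capture from fixed, paraffin-embedded sections gave 8 compartments with 2 arrays each: the embryo proper, the suspensor (a stalk through which the embryo is attached and fed), the endosperm (the nutritive tissue around the embryo) and 5 parts of the seed coat, namely hilum, epidermis, outer integument, inner integument and endothelium. The remaining 2 arrays held RNA of the whole seed. All 9 groups share cultivar, seed size and growth conditions, and none was treated. The labels do not say whether the 2 arrays of a group came from separate plants or seeds, so the p-values measure the spread between these samples, which may be technical. With 2 arrays a group, precision is limited.

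WRKY proteins carry a DNA-binding domain named after its conserved amino acids and bind short W-box elements in promoters. They are best known as switches of defence and senescence programmes, often downstream of MAP kinases. In Arabidopsis, some members also act in seeds: MINISEED3 in the endosperm sets seed size, TTG2 acts in the seed coat, and a further member helps to set the polarity of the zygote from which embryo and suspensor arise. The soybean numbers do not follow those of Arabidopsis, so a shared number does not imply a shared role, and most soybean members named here have no established role in the seed.

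Values are array signals on a linear scale, for which a level is comparable between arrays of the same probe set but not between genes. A fold is a ratio of geometric means after signals under 50 were set to 50. As a gauge of background, the 95th percentile of 23350 probe sets for other organisms ran from 106 to 216 over the 18 arrays. It was highest on hilum array 2 (216), epidermis array 2 (213) and inner integument array 1 (207). The seed coat MADS-box genes SEP1 and AGL1L averaged 3046 to 4812 and 10201 to 19913 in the 5 seed coat parts. In embryo proper, suspensor and endosperm their means stayed at or below 107 for SEP1 and 227 for AGL1L. KTI3, a Kunitz trypsin inhibitor gene, was highest in embryo proper, at a mean of 2446, with 509 in suspensor and 50, the floor, in each seed coat part. Several markers went against their assignment. SEP1 and AGL1L had been taken as markers of epidermis and outer seed coat, but they did not single these parts out. SEP1 was highest in endothelium, at 4812 against 3798 in epidermis, and AGL1L was lower in epidermis (10201) than in the other seed coat parts. SUT1, taken as a vascular marker for hilum and outer integument, averaged 730.5 in suspensor and 690.1 in epidermis. Its means were 359.7 in hilum and 194.0 in outer integument. ANR1, an enzyme gene of proanthocyanidin synthesis taken as an endothelium marker, averaged 259 in endothelium but 39308 in hilum and 15911 in epidermis. DFR1 and LAR1 of the same pathway averaged 578 and 50 in endothelium, with their highest means in epidermis (28839) and hilum (2526). EP, taken as an epidermis marker, was dim and highest in suspensor, at 379, against 133 in epidermis. The storage protein genes GY1 and GY2, taken as embryo proper markers, were at or below 228 in every compartment and highest elsewhere, and RCABETA, taken as one too, was highest in outer integument. Captured tissue is a mixture of cells, so fewer cells of a type and less RNA per cell cannot be told apart.

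Most of the tested WRKY genes differed between compartments, and the suspensor had the most members raised. By the moderated F test of limma over the 8 compartments, 33 of the 45 members differed at an adjusted p under 0.05. The same test called 56.9% of the 31961 soybean probe sets tested. Here and below, such shares count every probe set, whereas a member is counted by its brightest probe set alone. The sides were thus not chosen alike. Among the 33, the highest mean lay in suspensor for 12, endothelium for 7, embryo proper for 3, endosperm for 3, and in each of the other 4 parts for 2. The lowest mean lay in embryo proper for 13. The shares of all probe sets by compartment of highest or lowest mean were not computed, so these counts are description only. The ratio of highest to lowest compartment mean exceeded 10-fold for 17 of the 45 members. On both arrays of suspensor 27 members were above background, against 22 in embryo proper and 19 in outer integument. On both arrays of all 9 groups 11 members were above background. The gauge itself differed, at 188.8 and 160.1 in suspensor, 132.6 and 142.8 in embryo proper and 197.3 and 152.3 in outer integument. For the 10-fold range and for background counts, here or below, no share of all probe sets was computed, so they are description only.

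**Figure D1:**
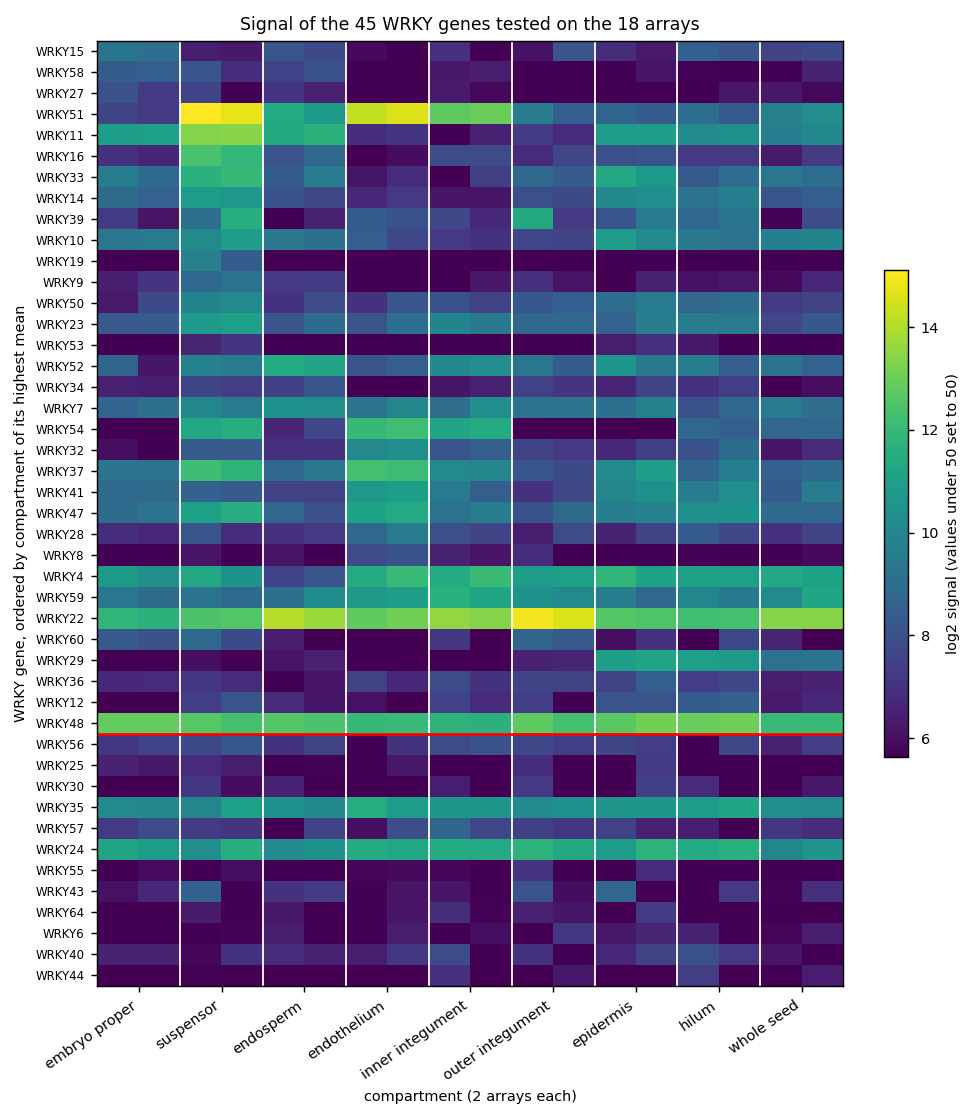
Log2 signal of the 45 WRKY genes tested (rows) on the 18 arrays (columns, 2 per group), with values under 50 set to 50. The 33 genes above the red line differed among the 8 compartments and are ordered by the compartment of their highest mean. The 12 below the line did not pass the F test, and the bright blocks of WRKY51 (suspensor, endothelium, inner integument) and WRKY29 (epidermis, hilum) stand out from the rest of their rows.

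In suspensor 17 of the 45 members were higher and 3 lower, where 12.7% of all probe sets tested were higher and 14.3% lower. The median log2 fold of the 45 was 0.54, and that of all probe sets tested was -0.11. Each compartment is part of the mean the others are set against, so these comparisons share arrays and their counts are not independent. A member that also exceeded each of the other 7 compartments in pairwise tests was taken as highest in 1 compartment, which held for 7 members and 10.4% of the probe sets tested. Of these 7, the suspensor had WRKY9, WRKY11, WRKY16 and WRKY19 (2.56% of the probe sets tested were highest there). The endothelium had WRKY8 and WRKY32 (0.435%), and the outer integument had WRKY22 (1.38%). WRKY19 and WRKY8 passed the filter on low signals through the compartment where they are high, so for these members being called is no support. For WRKY9 and WRKY32, single pairwise tests behind this did not pass with 1 array left out. WRKY9 against endosperm was lost without suspensor array 2 (adjusted p = 0.0641) and without endosperm array 1 (adjusted p = 0.0684). WRKY32 against inner integument was lost without either endothelium array or inner integument array 1, and WRKY32 against hilum without either endothelium array or hilum array 1 (adjusted p from 0.0543 to 0.154).

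**Figure D2:**
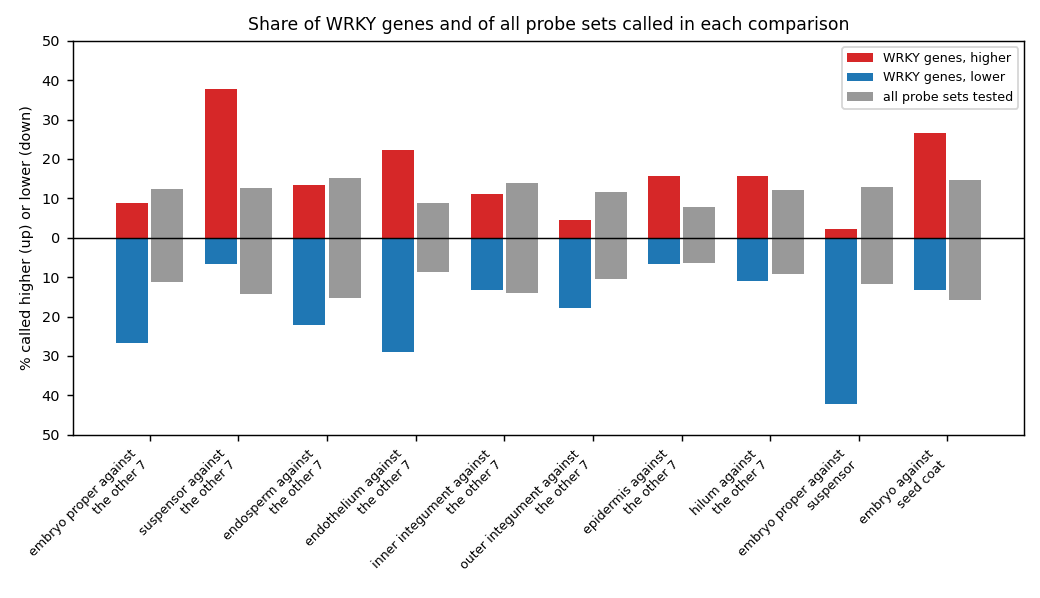
Share of the 45 WRKY genes called higher (red, upward) and lower (blue, downward) at an adjusted p under 0.05 in each of the 10 comparisons, beside the share of all 31961 probe sets tested (grey). Among the upward bars the WRKY share exceeds the grey bar most for suspensor (17 of 45 higher), and among the downward bars for embryo proper against suspensor (19 of 45 lower).

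WRKY51 had the largest range of compartment means among the 45 members, 186-fold. Its signals were 35385 and 28732 in suspensor, 19453 and 25216 in endothelium and 6991 and 8143 in inner integument. In endosperm they were 2755 and 1686. All other captured arrays, those of embryo proper, outer integument, epidermis and hilum, lay between 152 and 792. The 2 suspensor arrays were thus above all 14 arrays of the other compartments, at 25.3 times their mean (log2 fold 4.66, SE 0.28, adjusted p = 5.45e-10). Suspensor and endothelium differed by 1.44-fold, which did not pass (adjusted p = 0.361), although the arrays of the 2 groups did not overlap. Endothelium against the other 7 gave a 16.7-fold rise (adjusted p = 1.02e-08) and inner integument a 4.87-fold rise (adjusted p = 4.84e-06). WRKY51 has 3 further probe sets, whose profiles correlated with the first at r of 0.909 to 0.971 over the 8 compartment means and which were all highest in suspensor. With the mean of the 4 probe sets in place of the brightest, the log2 fold was 3.09 in suspensor and 2.35 in endothelium. The inner integument call was lost on that scale (log2 fold 0.81, adjusted p = 0.0612). Its falls were also smaller there, with log2 folds of -1.86 in embryo proper, -1.72 in epidermis and -1.40 in hilum against -3.96, -2.64 and -2.52 with the brightest probe set.

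WRKY54 had a like distribution, with the endothelium in front. GmWRKY54 is known from work on salt and drought tolerance in plants that overexpress it. The signals were 4007 and 4671 in endothelium, 2585 and 3006 in suspensor, and 2430 and 2847 in inner integument. Hilum arrays read 444 and 367 and endosperm arrays 100 and 202, while embryo proper, outer integument and epidermis were at 30 or below on each array. WRKY54 was 17.7-fold higher in endothelium than the mean of the other 7 (log2 fold 4.14, SE 0.30, adjusted p = 1.54e-08), with both arrays above the other 14. It was 10.7-fold higher in suspensor (adjusted p = 5.87e-08) and 10.01-fold higher in inner integument (adjusted p = 1.12e-07). Suspensor against endothelium (1.55-fold lower, adjusted p = 0.286) and suspensor against inner integument (1.06-fold, adjusted p = 0.93) did not pass. In embryo proper, outer integument and epidermis every array was at the floor, and the gene was at least 9.26-fold lower there than in the other 7 compartments.

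WRKY37 and WRKY47, named after their values were seen, were also high in both suspensor and endothelium. WRKY37 read 4576 and 3535 in suspensor and 5020 and 4550 in endothelium, and the next group, epidermis, read 1128 and 1986. WRKY47 read 2092 and 2972 in suspensor and 2269 and 2760 in endothelium, followed by hilum at 1251 and 1451. The rise over the other 7 compartments was 4.59-fold in suspensor and 5.6-fold in endothelium for WRKY37, and 3.33-fold and 3.34-fold for WRKY47 (adjusted p from 2.54e-06 to 0.000147). WRKY37 has a second probe set that did not share the profile (r = -0.238), and with the mean of both its suspensor call was lost (adjusted p = 0.222). The seed coat markers SEP1 and AGL1L averaged 107 and 227 in suspensor, and 4812 and 11329 in endothelium. Their bearing on the values of these members was not tested.

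**Figure D3:**
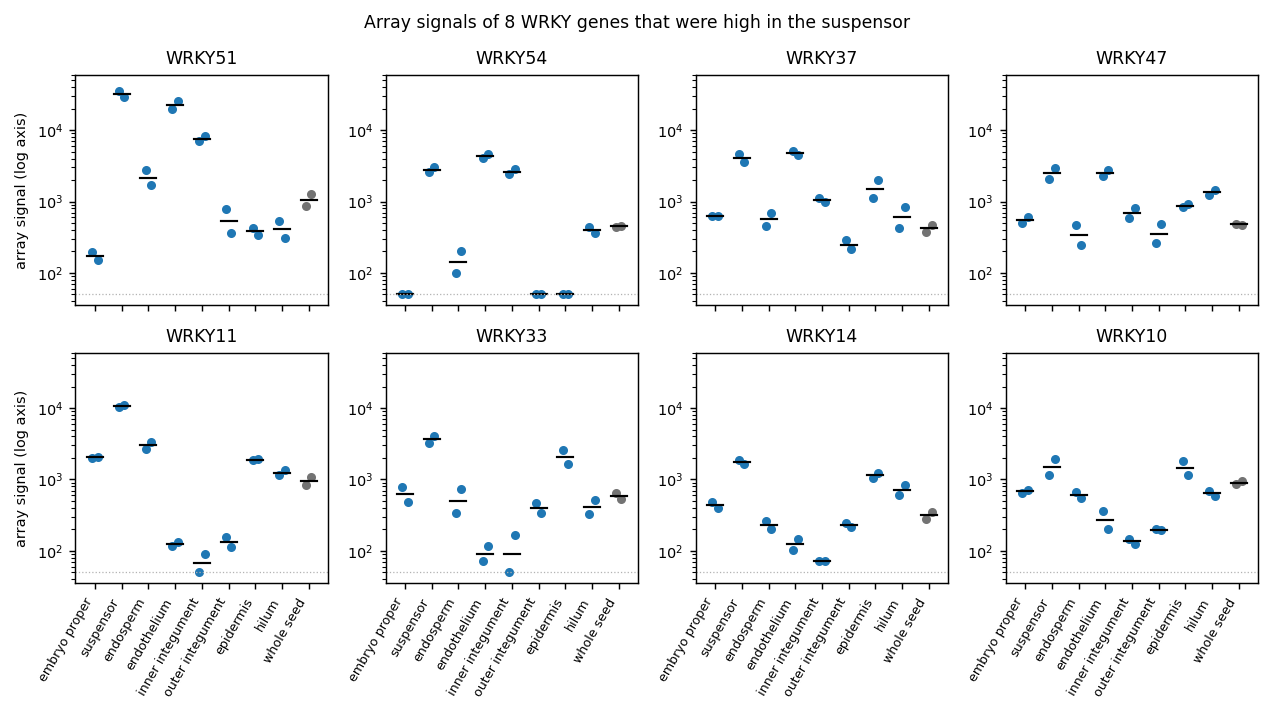
Array signals (log axis, values under 50 at the dotted line) of 8 WRKY genes high in suspensor, by compartment and in whole seed (grey). Points are single arrays and bars the geometric mean of 2. The upper row was high in suspensor and endothelium. The lower row was high in suspensor, with endothelium and inner integument among its lowest groups.

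A second set of members was high in suspensor and low in the inner seed coat. WRKY11 read 10502 and 11029 in suspensor and 2704 and 3362 in endosperm. Embryo proper read 1995 and 2085, epidermis 1902 and 1906, and hilum 1146 and 1360. Its endothelium arrays read 118 and 134, its outer integument arrays 157 and 113, and its inner integument arrays 28 and 89. The suspensor arrays lay above all others, at 19.4 times the mean of the other 7 compartments (log2 fold 4.28, SE 0.24, adjusted p = 2.36e-10). Suspensor exceeded endosperm, the next group, by 3.57-fold (adjusted p = 0.000299). WRKY11 was 17.2-fold lower in inner integument, 8.34-fold lower in endothelium and 7.82-fold lower in outer integument than in the other 7 compartments (adjusted p from 1.2e-09 to 4.84e-08). In each of these groups its mean lay under the background gauge, so the size of the falls depends on background.

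WRKY14 read 1866 and 1640 in suspensor, 1064 and 1252 in epidermis and 608 and 832 in hilum, and its inner integument arrays, at 73 and 71, were the lowest of all. It was 6.04-fold higher in suspensor (adjusted p = 1.36e-06) and 3.75-fold higher in epidermis (adjusted p = 0.000112). It was 6.32-fold lower in inner integument (adjusted p = 1.11e-06) and 3.41-fold lower in endothelium (adjusted p = 0.000198). Both means lay under the background gauge, so the size of these falls depends on background. The difference between suspensor and epidermis was 1.52-fold and did not pass (adjusted p = 0.296). Its 2.16-fold rise in hilum did not hold without hilum array 2 (adjusted p = 0.173).

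WRKY33 and WRKY10, named after their values were seen, were likewise high in suspensor and epidermis. WRKY33 read 3286 and 4054 in suspensor, 2602 and 1658 in epidermis and at most 793 on every other captured array. It was 9.96-fold higher in suspensor (adjusted p = 3.66e-06) and 5.23-fold higher in epidermis (adjusted p = 0.000316). In inner integument it was 6.77-fold lower, with a mean under the background gauge. The log2 fold moved to -1.88 without array 1 of that group and -3.63 without array 2, against -2.76 with both. A second probe set of WRKY33 had the same profile (r = 0.971). WRKY10 read 1150 and 1937 in suspensor and 1842 and 1166 in epidermis, which overlapped, and at most 719 on the other captured arrays. Its rise in suspensor was 3.45-fold (adjusted p = 0.0001). A second probe set of WRKY10 followed this profile less closely (r = 0.697) and was highest in epidermis, at 599 and 1098. That probe set read 326 and 528 in suspensor and 373 and 263 in inner integument, so it did not show the low inner integument.

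WRKY16 and WRKY19 had their highest signals in suspensor by a wide margin. WRKY16 read 5360 and 3890 in suspensor and at most 453 on all other captured arrays, a 28.1-fold rise (log2 fold 4.81, SE 0.36, adjusted p = 9.6e-09). Endosperm, the next group, was 13.2-fold below suspensor (adjusted p = 1.2e-05). WRKY19 read 866 and 342 in suspensor and under 50 on every other array, so it was at least 10.9-fold higher there. It passed the filter through these 2 arrays alone, which fixes its direction, so no test is given. The 2 arrays differ, and the log2 fold was 2.77 without array 1, 4.11 without array 2 and 1.56 with the mean of its probe sets. WRKY9 read 464 and 590 in suspensor and at most 161 elsewhere. The probe set of WRKY16 is marked by its suffix as one that can bind related transcripts, and it shares its cluster number with that of WRKY52, and the probe set of WRKY19 shares its cluster number with one of WRKY62, so the split of signal within these pairs is uncertain.

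The other members raised in suspensor were WRKY23, WRKY39, WRKY50, WRKY53, WRKY58 and WRKY60. WRKY23 read 1685 and 2034 in suspensor, a 3.69-fold rise, and WRKY50 read 971 and 1131, a 3.94-fold rise. WRKY53 read 97.6 and 132.5 in suspensor, under the background gauge of 188.8 and 160.1 on these arrays. In no compartment was WRKY53 above background on both arrays. It reached the filter's signal on suspensor array 2 and epidermis array 2 alone, so for WRKY53 being called is no support. Of the calls of the members listed here, 4 rest on single arrays. WRKY39 read 569 and 3064 and was not called without suspensor array 2 (adjusted p = 0.458), and WRKY53 likewise (adjusted p = 0.133). WRKY58 (adjusted p = 0.606) and WRKY60 (adjusted p = 0.42) were not called without suspensor array 1. WRKY22, WRKY29 and WRKY59 were lower in suspensor, by 1.49-fold, 2.96-fold and 2.02-fold, of which WRKY22 lost its call without suspensor array 1 (adjusted p = 0.078) and WRKY59 without either (adjusted p = 0.0694 and 0.207).

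The 2 parts of the embryo differed in many members, nearly all of them lower in the embryo proper. Against suspensor, 19 of the 45 members were lower in embryo proper and 1 was higher, where 11.7% of the probe sets tested were lower and 12.9% higher. The median log2 fold of the 45 was -0.72 and that of all probe sets tested 0.00. In 10 of the 20 calls, WRKY16 among them, the mean of the lower side lay under the background gauge, so the size of those folds depends on background. WRKY51 read 193 and 152 in embryo proper against 35385 and 28732 in suspensor, 186-fold lower (log2 fold -7.54, SE 0.37, adjusted p = 1.66e-10). With the mean of its 4 probe sets the log2 fold was -4.33. WRKY54, at 30 and 24 in embryo proper against 2585 and 3006 in suspensor, was at least 55.7-fold lower (adjusted p = 5.3e-09). WRKY16 read 128 and 101 in embryo proper against 5360 and 3890 in suspensor, 40.3-fold lower (adjusted p = 1.41e-07). WRKY11 and WRKY14, which the embryo proper also expressed, were 5.28-fold and 4.0-fold lower in embryo proper than in suspensor (adjusted p = 1.53e-05 and 0.000606).

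WRKY50 was 8.01-fold lower in embryo proper (adjusted p = 0.000235), at 81 and 211 against 971 and 1131 in suspensor. Its log2 fold was -2.31 without embryo proper array 1 and -3.69 without array 2. WRKY19, counted among the 19, read 3 and 5 in embryo proper, and its difference follows from the filter as above. WRKY53, also counted among the 19, was under the background gauge on the arrays of both groups. WRKY39 was 12.5-fold lower, but its call was lost without suspensor array 2 (adjusted p = 0.195), without embryo proper array 2 (adjusted p = 0.132) and with the mean of its probe sets (adjusted p = 0.357). The single member that went the other way was WRKY15, at 638 and 552 in embryo proper against 87 and 78 in suspensor, 7.21-fold higher (log2 fold 2.85, SE 0.60, adjusted p = 0.00146).

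**Figure D4:**
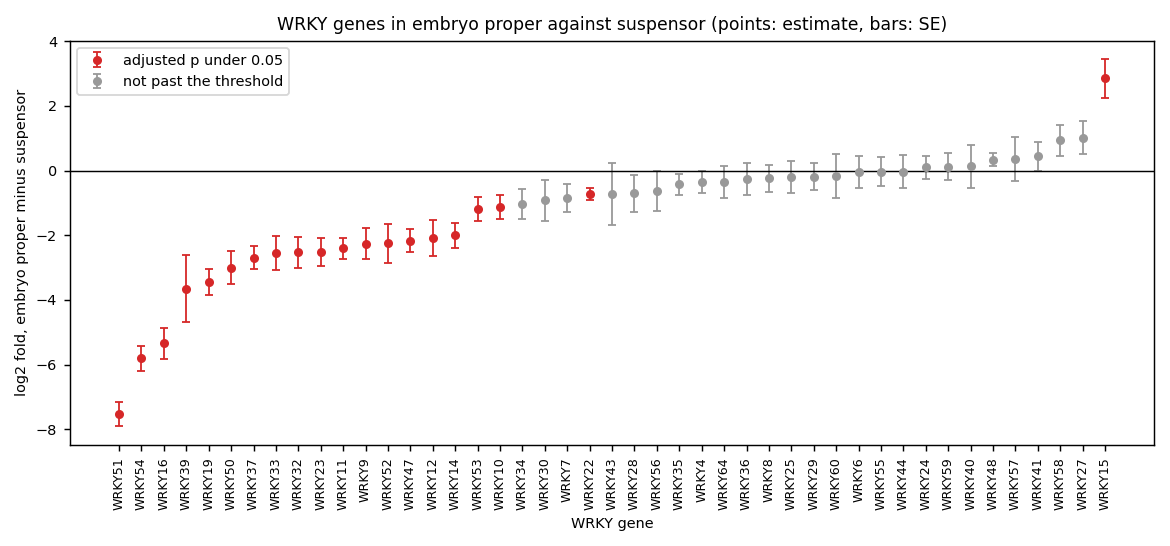
Log2 fold of embryo proper minus suspensor for the 45 WRKY genes tested, in order of size, with the standard error from limma as bars. Red points passed an adjusted p of 0.05: 19 genes lie below 0, down to -7.54 for WRKY51, and WRKY15 lies above it at 2.85.

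Set against the other 7 compartments, the embryo proper had 4 members higher and 12 lower. Of all probe sets tested, 12.3% were higher and 11.2% lower, and the medians were -0.44 for the 45 members and -0.10 overall. WRKY15 was 4.88-fold higher in embryo proper (adjusted p = 0.000902), with at most 384 on any other captured array. WRKY58 read 343 and 356 there and at most 283 elsewhere, a 4.26-fold rise (adjusted p = 0.000244) whose size depends on background, as the other compartments averaged 82. Neither passed against its next group (WRKY15 against hilum, adjusted p = 0.361; WRKY58 against endosperm, adjusted p = 0.406). WRKY51 was 15.5-fold lower (adjusted p = 7.43e-09) and WRKY32 4.95-fold lower (adjusted p = 7.85e-05), each with both arrays under all others. In 9 of the 16 calls, WRKY32 among them, the mean of the lower side lay under the background gauge, so the size of those folds depends on background. WRKY16 was 2.43-fold lower, a call lost without either embryo proper array (adjusted p = 0.0764 and 0.201). The count of 16 calls was 9 without embryo proper array 1 and 10 without array 2.

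The embryo as a whole, taken as the mean of embryo proper and suspensor, was set against the mean of the 5 seed coat parts. In the embryo 12 members were higher and 6 lower, where 14.6% of the probe sets tested were higher and 15.9% lower. WRKY11 was 15.3-fold higher in embryo (log2 fold 3.94, SE 0.19, adjusted p = 1.87e-11), with 1995 to 11029 on the embryo arrays and 28 to 1906 on the seed coat arrays. WRKY58 was 4.40-fold higher (adjusted p = 9.59e-06), with 117 to 356 in embryo and 3 to 83 in seed coat. WRKY16 and WRKY14 were 4.79-fold and 3.13-fold higher by this mean (adjusted p = 5.06e-06 and 1.44e-05), although their embryo proper arrays lay within the range of the seed coat. WRKY51 and WRKY54, high in suspensor and in 2 seed coat layers, were not called.

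The endothelium, the innermost layer of the seed coat, had 10 members higher and 13 lower. Of the probe sets tested, 8.76% were higher and 8.80% lower, and the median log2 folds were -0.27 for the 45 members and -0.12 for all. Beside WRKY51, WRKY54, WRKY37 and WRKY47, the members raised there included WRKY32, WRKY41 and WRKY8. WRKY32 read 1096 and 1237 in endothelium and at most 513 elsewhere, a 6.46-fold rise (log2 fold 2.69, SE 0.36, adjusted p = 2.23e-05). A second probe set of WRKY32 was highest in inner integument, at 419 and 591, with 308 and 352 in endothelium. With the mean of both, WRKY32 in endothelium was not called against suspensor (adjusted p = 0.19) or inner integument (adjusted p = 0.507). WRKY41 read 1637 and 1996 there against 997 and 1355 in epidermis, and was 4.16-fold higher than the mean of the other 7 (adjusted p = 0.000233). WRKY8 read 229 and 260, with at most 119 elsewhere, and was 4.05-fold higher. It reached the filter's signal of 100 on the 2 endothelium arrays and 1 outer integument array, so its test is not given. The probe set of WRKY32 shares its cluster number with that of WRKY28, which followed the same profile and was 3.49-fold higher, a call lost without endothelium array 2 (adjusted p = 0.165).

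Among the members lowered in endothelium, WRKY16 read 14 and 63 and was 5.44-fold lower (adjusted p = 7.4e-05). Its log2 fold was -2.44, with -1.61 at a floor of 100 and -3.36 with no floor. In 13 of the 23 endothelium calls, WRKY16 among them, the mean of the lower side lay under the background gauge, so the size of those folds depends on background. WRKY34, at 39 and 10, was at least 2.76-fold lower, a call lost without either endothelium array (adjusted p = 0.0743 and 0.0708). The remaining falls included WRKY11, WRKY14 and WRKY33, described above. The 23 calls of this layer became 15 without endothelium array 1 and 12 without array 2.

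In inner integument 5 members were higher and 6 lower, where 13.9% of the probe sets tested were higher and 13.9% lower. WRKY59 led the rises apart from WRKY54 and WRKY51, with 3343 and 2460 in inner integument and 1754 and 1936 in endothelium, the next group. It was 3.41-fold higher than the other 7 (adjusted p = 0.000267), and its log2 fold was 1.77 with the brightest probe set and 0.89 with the mean of its probe sets. WRKY11 and WRKY14 were the largest falls without overlap. In outer integument 2 members were higher and 8 lower, where 11.7% of the probe sets tested were higher and 10.4% lower.

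WRKY22 and WRKY60 were the members raised in outer integument. WRKY60 read 411 and 318 there and 466 and 219 in suspensor, which overlapped, and its 3.2-fold rise (adjusted p = 0.0232) was lost without either outer integument array (adjusted p = 0.224 and 0.0914). WRKY22 read 31554 and 24442 in outer integument, 17404 and 13344 in endosperm, 12367 and 10510 in inner integument and 3365 to 8449 in the other captures. The rise over the other 7 was 3.95-fold (log2 fold 1.98, SE 0.14, adjusted p = 1.06e-08), with a log2 fold of 1.22 for the mean of its 5 probe sets. Outer integument exceeded endosperm by 1.82-fold (adjusted p = 0.00167), a difference that did not pass with that mean (adjusted p = 0.238). WRKY37 was 5.24-fold lower in outer integument (adjusted p = 2.88e-06), at 288 and 214 against at least 427 on the other captured arrays, and this call too was lost with the mean of its probe sets (adjusted p = 0.0879).

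The endosperm had 6 members higher and 10 lower, where 15.1% of the probe sets tested were higher and 15.4% lower. WRKY52 read 2790 and 2326 in endosperm and at most 1552 elsewhere, 4.67-fold higher than the other 7 (adjusted p = 0.00111). WRKY7 read 1392 and 1324, above the highest other array at 1255, and its 2.15-fold rise was not called without either endosperm array (adjusted p = 0.131 and 0.0991). The clearest value of the endosperm was a fall. WRKY4 read 187 and 285 there and 1290 to 4367 on all other captured arrays, 10.2-fold lower (log2 fold -3.35, SE 0.26, adjusted p = 1.73e-08), and the log2 fold was -1.31 with the mean of its probe sets. WRKY36, at 31 and 73, was 2.67-fold lower, a call lost without endosperm array 1 (adjusted p = 0.15). The 16 calls became 7 without endosperm array 1 and 10 without array 2.

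Epidermis and hilum, which lie at the outside of the seed, had several calls in common. WRKY11, WRKY14, WRKY29 and WRKY41 were called higher in both, and WRKY22 and WRKY51 lower in both. The hilum rises of WRKY11 and WRKY14 did not hold without hilum array 2. WRKY41 read 997 and 1355 in epidermis and 777 and 1247 in hilum. WRKY29, named after its values were seen, read 1926 and 2330 in epidermis and 2040 and 1747 in hilum. All other captured arrays lay at or below 99, under the background gauge, and whole seed read 600 and 605. The rise was 21.1-fold in epidermis and 18.5-fold in hilum, each against a mean that holds the other. WRKY29 reached the filter's signal of 100 on the epidermis, hilum and whole seed arrays alone. This fixes the direction of both rises, so no test of them is given. The 2 groups differed by 1.12-fold and overlapped (adjusted p = 0.897). A second probe set of WRKY29 gave the same profile (r = 0.981). The proanthocyanidin genes ANR1, at 15911 in epidermis and 39308 in hilum, and DFR1, at 28839 in epidermis and 17934 in hilum, were high in the same captures, and LAR1 averaged 165 in epidermis and 2526 in hilum. Their part in the result was not tested.

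In epidermis 7 members were higher and 3 lower, where 7.90% of the probe sets tested were higher and 6.35% lower. WRKY29 and WRKY33 had the largest rises, and WRKY54 and WRKY51 the largest falls (at least 9.26-fold and 6.25-fold). In hilum 7 members were higher and 5 lower, where 12.0% of the probe sets tested were higher and 9.19% lower. WRKY12 read 336 and 379 in hilum and at most 274 elsewhere, a 3.24-fold rise that was lost without either hilum array (adjusted p = 0.0518 and 0.0877). WRKY51 was 5.75-fold lower in hilum (adjusted p = 2.96e-06). The 12 calls of the hilum became 4 without hilum array 1 and 7 without array 2.

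**Figure D5:**
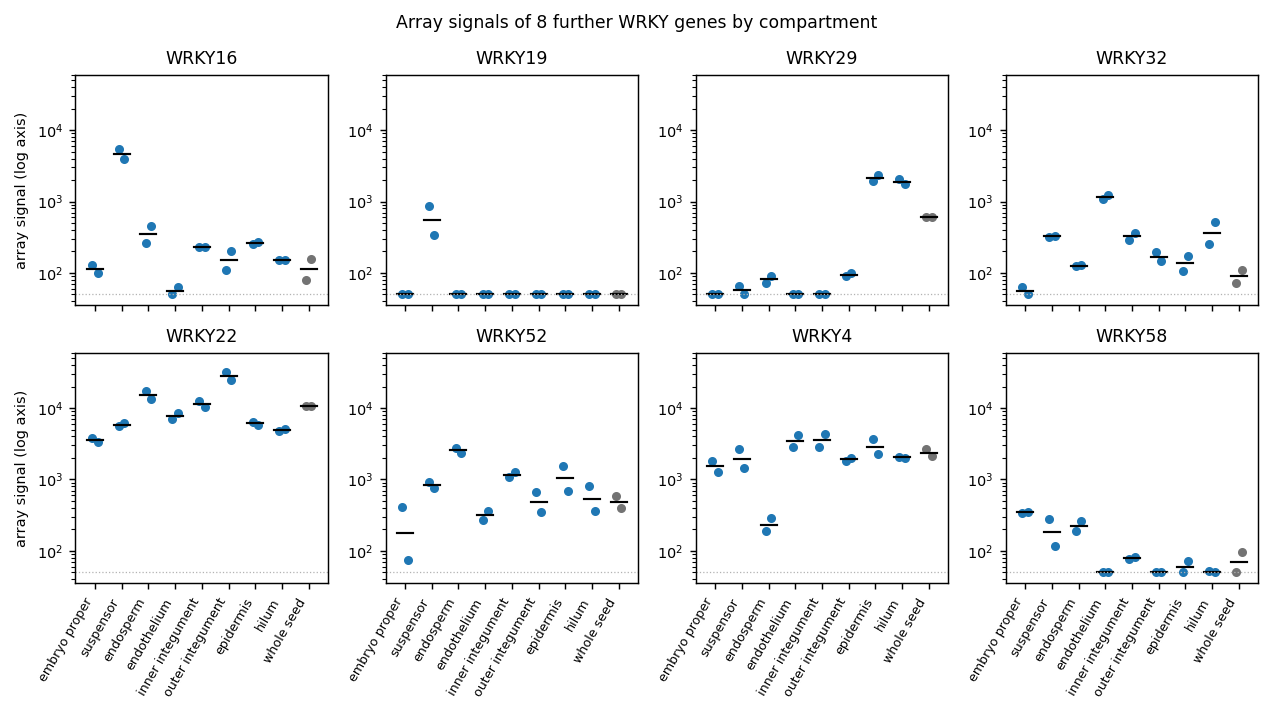
Array signals (log axis, values under 50 at the dotted line) of 8 further WRKY genes, by compartment and in whole seed (grey). Points are single arrays and bars the geometric mean of 2. WRKY16 and WRKY19 peak in suspensor, WRKY29 in epidermis and hilum, WRKY32 in endothelium, WRKY22 in outer integument, WRKY52 in endosperm and WRKY58 in embryo proper, and WRKY4 is lowest in endosperm.

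The other 12 tested members did not pass the F test, which does not show that they were even across the seed. WRKY24 ran from 1000 to 3507 over the 18 arrays (median 2606, adjusted p = 0.0627) and WRKY35 from 983 to 2904 (median 1447, adjusted p = 0.0584), both above background in all 8 compartments. WRKY56 (median 172, adjusted p = 0.223), WRKY57 (median 149, adjusted p = 0.217) and WRKY40 (median 99.9, adjusted p = 0.675) were dim. Of the 12, 8 were above background on both arrays of no compartment. WRKY24 was nevertheless 1.99-fold lower in endosperm (adjusted p = 0.0079), a call lost without endosperm array 1 (adjusted p = 0.137). The 8 genes that failed the filter, WRKY2, WRKY5, WRKY17, WRKY21, WRKY38, WRKY46, WRKY62 and WRKY63, had highest signals between 58.6 and 188 on any array.

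Profiles over the 8 compartment means described which members rose and fell together. Pearson correlation of log2 means was highest for WRKY27 with WRKY58 (r = 0.965), followed by WRKY28 with WRKY32 (0.950) and WRKY14 with WRKY33 (0.933). WRKY10 and WRKY11 reached 0.930, WRKY16 and WRKY19 0.903, and WRKY51 and WRKY54 0.899. WRKY19 was at the floor in every compartment but suspensor, so its r with WRKY16 rests on that compartment alone. WRKY11 and WRKY51, both highest in suspensor, did not resemble each other (r = -0.098). These are 8 points from the same arrays and serve as a description.

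Genes with several probe sets allowed a check of the profiles. For 19 members, 32 further probe sets passed the filter, and 20 of them had the same highest compartment as the one used. Their correlation with it over the 8 compartment means had a median of 0.711 and ran from -0.238 to 0.981, with 7 below 0. WRKY4, WRKY24, WRKY37, WRKY39 and WRKY48 were among the genes with a second probe set below 0. WRKY48 was bright on all arrays, at 3362 to 8673, and its 1.83-fold fall in inner integument was not called with the mean of its probe sets (adjusted p = 0.912).

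Genes that act around WRKY factors were counted from lists of name patterns. Of 6 pathogenesis-related and stress genes, 4 were higher and 1 lower in suspensor, where 12.7% of all probe sets tested were higher and 14.3% lower. PGIP, a polygalacturonase-inhibiting protein gene, read 46 and 6 in embryo proper against 10490 and 10444 in suspensor and was at least 209-fold lower in embryo proper (adjusted p = 5.44e-09). H4, a stress-induced protein gene whose probe set can bind related transcripts, read 16132 and 17928 in suspensor and 16173 and 14723 in endothelium. It was 179-fold lower in embryo proper than in suspensor (adjusted p = 1.34e-06), with 180 and 14 on the embryo proper arrays. The embryo proper mean was under background, and the log2 fold of H4 was -8.41 without embryo proper array 1 and -6.56 without array 2, against -7.49 with both. PR-10 was at least 22.8-fold lower and PGIP4 at least 8.39-fold lower in embryo proper. PGIP4 read 352.7 and 498.5 in suspensor, and elsewhere it reached the filter's signal on epidermis array 2 alone (206.7). It thus passed the filter through suspensor, so its being called there, as 1 of the 4 higher, is no support. The same holds for its fall in embryo proper against suspensor. SARK, a senescence-associated receptor kinase gene, was 59.4-fold higher in endothelium (adjusted p = 2.54e-09) and 3.65-fold lower in suspensor, where the call was lost with no floor (adjusted p = 0.291).

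Of 8 defence regulators, 1 was higher and 3 lower in suspensor, beside the same 12.7% and 14.3% of all probe sets: PAD4, a lipase-like immune regulator, was 4.13-fold higher, and NDR1A, NDR1b and PBS1-1 were lower. The NDR1b call was lost without either suspensor array (adjusted p = 0.0716 and 0.257), and NDR1A moved in log2 fold to -1.11 without array 1 and -3.80 without array 2, from -2.46. EDS1-2, the partner of PAD4 in immune signalling, was 5.79-fold higher in epidermis, where 7.90% of all probe sets were higher. Of 3 MAP kinase cascade genes, MPK4B was 4.07-fold lower in inner integument and 3.31-fold higher in epidermis. It was also 2.37-fold higher in hilum (adjusted p = 0.00141) and 1.69-fold lower in endothelium (adjusted p = 0.0422). Of all probe sets, 13.9% were lower in inner integument, 12.0% higher in hilum and 8.80% lower in endothelium. MAPK2 and MAPKK2 were not called in any compartment. The NAC and ERF transcription factor families gave counts for comparison: in suspensor, 7 of 18 NAC genes were higher and 2 lower, and 3 of 7 ERF genes were higher, where 12.7% of all probe sets were higher and 14.3% lower. In embryo proper against suspensor, 11 of the 18 NAC genes were lower and 0 higher. Of the 7 ERF genes, 4 were lower and 1 higher there. The shares of all probe sets were 11.7% lower and 12.9% higher. Whether WRKY counts differ from these was not tested.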

How the data were processed

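RNA of 8 laser-captured compartments and of whole seed was amplified from 2 ng with RiboAmp OA and read on Affymetrix Soybean Genome Arrays, per the labels' protocols. What the authors deposited is a linear intensity for each probe set, made with GCOS 1.3, per the submitters' processing notes. Their 2% trimmed mean was 500 on every array, and no detection calls were given. Background steps are not given in the sources used here.

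Signals under 50 were set to 50 and log2 was taken. The 31961 of 37593 soybean probe sets that reached 100 on 2 or more arrays were fitted with lmFit and eBayes (variance trend) in limma 3.58.1 under R 4.3.3, with a mean per group. Differences, the F test and all 28 pairs of compartments were tested, with Benjamini-Hochberg adjustment over all probe sets within a comparison and a threshold of 0.05. The method was tested on simulated data. Named members are those with the largest changes without overlap of arrays (4 rises and 2 falls per compartment, 6 each way for embryo proper against suspensor, 4 for embryo against seed coat), 5 markers and the 5 brightest that did not pass, and others are marked as named after their values were seen or are listed in full counts. The members, lists (MAP kinase cascade, VQ proteins, with no gene found, defence regulators, pathogenesis-related and stress proteins, NAC, ERF) and rules were chosen with earlier results of these data known. Chalcone isomerase symbols that matched a pattern by spelling were removed. Alternatives changed the floor, filter, trend, normalization, probe sets and arrays used. Equal replicate numbers gave no sign of paired samples: over 36 pairs of groups, the deviations of equally numbered arrays correlated at -0.073 to 0.083. A shared effect that is small beside the spread between arrays could go unseen in this check, so pairing is not excluded.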

Additional observations from a re-analysis of the deposited data

How the results depend on the processing

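Of 348 alternative values of the 12 counts of WRKY genes, 339 lay within 1.5 times the reported count. Leaving out 1 array at a time gave 9 to 18 calls in embryo proper (16 with all arrays), 7 to 17 in endosperm (16), 12 to 24 in endothelium (23) and 4 to 13 in hilum (12). With no floor, 4 members in place of 7 were highest in 1 compartment. Of 1708 alternative values for 59 named results, 1679 kept their direction and their side of the threshold, 29 kept the direction but lost the call, and 0 reversed. Of the 59, 27 moved by more than 1.5-fold under at least 1 alternative, most often a changed floor or the mean of a gene's probe sets. Some lost calls are not in the report. WRKY11 in hilum was lost without hilum array 1 (adjusted p = 0.107) and array 2 (0.295) and under 5 other alternatives. WRKY54 in endosperm was lost with no floor (0.0698) and without endosperm array 1 (0.0743), WRKY36 in endosperm with a floor of 100 (0.0691), and WRKY39 in embryo proper against suspensor with no filter (0.074). Leaving out epidermis array 2, inner integument array 1 and outer integument array 1 together gave 22 calls in suspensor against 20, 20 in endothelium against 23, 7 in outer integument against 10 and 7 in epidermis against 10. Hilum array 2, whose background was the highest, was not among these 3. With the replicate number as a block, embryo proper against suspensor kept a count of 20 and suspensor against the other 7 had 19 calls, and no count moved by more than 1.5 times. Folds whose lower side is near the floor of 50 depend on background. Where a group was left with 1 array, its spread was taken to be that of the other groups.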

Other observations

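Whole seed was in no test of this report. Of the 45 members, 23 were above background on both whole seed arrays. WRKY51 read 861 and 1275 in whole seed, WRKY54 440 and 454, WRKY11 845 and 1068, WRKY14 278 and 354, and WRKY16 81 and 156. All of these lie under the suspensor arrays of the same gene. WRKY22, high in outer integument and endosperm, read 10759 and 10680. WRKY19, whose probe set used here passed 50 in suspensor alone, read 4 and 7 in whole seed. RNA of the whole seed was isolated by another method than that of the captures, so the levels are given as values without a test.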
